A study of Mus musculus with 3 samples.

Results

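Genes that encode RNA polymerase subunits, general transcription factors, Mediator, elongation factors, the CCR4-NOT complex and the cleavage and polyadenylation factors were compared between mouse liver RNA and Universal Mouse Reference RNA (UMRR). They were chosen by name: every probe whose single gene symbol starts with Polr, Taf and a digit, Gtf2, Gtf3, Med and a digit, Supt, Tcea, Cnot, Cpsf or Cstf, or equals Tbp or Ell. The rule found 125 of 12336 probes with 1 symbol, and 74 of 7984 genes. No probe named Tbp or Ell was found. On each of 3 arrays of 2 colours, purchased liver total RNA labelled with Cy5 was hybridised with UMRR labelled with Cy3, a purchased mixture of mouse cell line RNAs. Neither the strain and age of the liver donors nor the number of livers pooled is given in the labels, and there was no dye swap. Both RNAs are 1 catalogue product each and each was amplified to cRNA in a single round, so every SD and p-value below measures the spread between 3 arrays of 1 RNA pair and not the spread between livers.

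RNA polymerase II transcribes protein-coding genes, and RNA polymerase III transcribes transfer RNAs and other small RNAs. General transcription factors such as TFIID, TFIIE, TFIIF and TFIIH place polymerase II at promoters, and Mediator passes signals from transcription factors bound at enhancers to it. Elongation factors then keep the polymerase moving, cleavage and polyadenylation factors end the transcript, and the CCR4-NOT complex shortens its poly(A) tail. Hepatocytes, the main cells of liver, hardly divide in the adult animal, while cell lines grow and divide continuously.

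The values are log ratios of liver over UMRR, with base 2 assumed. A value of 1 is thus 2-fold higher in liver. Read as natural logs, every value would be larger by a factor of 1.44. The direction is not stated with the values and was set by secretory genes of hepatocytes, of which Apoc3, Ambp, Rbp4 and Vtn had means of 5.17, 4.01, 4.02 and 5.12. Of the 6 hepatocyte genes on the array, these 4 had a ratio on every array, and Fgb and Ttr did not. Exact zeros (32.2%, 23.5% and 29.6% of all probes on arrays 1, 2 and 3) were read as no ratio. Of 8 measured genes of proliferating cells, 7 were lower in liver, with a list median of -2.34 and gene means from -4.15 to -0.0046. Among 11 pancreatic acinar genes, 10 were higher in liver (median 3.87), and so were 5 of 7 erythroid genes (median 4.39). The part of these cell types in the results below was not tested. A ratio in bulk RNA cannot tell fewer cells of a type from less RNA per cell.

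Of the 74 genes, 52 had a ratio on all 3 arrays from at least 1 probe, 12 on at most 1 or 2 arrays, and 10 on none. The share of probes with a ratio on all arrays was 66.4% (83 of 125), against 62.7% over all probes with 1 symbol. In the limma test with Benjamini-Hochberg adjustment over 5520 genes, 25 of the 52 measured genes were lower in liver (48.1%) and 10 were higher (19.2%), while 17 did not pass at an adjusted p of 0.05. Over all genes tested, 33.9% were lower and 30.1% higher. The median of the 52 genes was -0.30, against -0.028 over all genes. Where 51.7% of all genes had a mean below 0, 34 of the 52 did (65.4%). By array, their median was -0.30, -0.21 and -0.38 on arrays 1, 2 and 3, against -0.043, -0.028 and -0.0066 for all genes. Without array 1, 27 genes were lower and 11 higher of 54 that could then be measured, when 37.3% of all genes were lower and 32.5% higher.

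Most of these differences were small. A mean within 1 log2 unit of 0 was found for 39 of the 52 genes (75%), close to the 75.1% of all genes. Of the 13 beyond it, 9 were lower in liver and 4 higher, where all genes gave 728 lower and 647 higher. The lowest mean was -1.97 (Tceal9) and the highest 2.48 (Cpsf4l), within a range of -4.27 to 6.14 over all genes. On every array a 2-fold gap or more was seen for Polr2g, Polr2d, Gtf2e2, Med13l and Tceal9 in the lower direction, 5 of 52 where all genes gave 9.53%. In the higher direction it was seen for Polr2l, Cnot7 and Cpsf4l, 3 of 52 where all genes gave 9.46%.

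**Figure D1:**
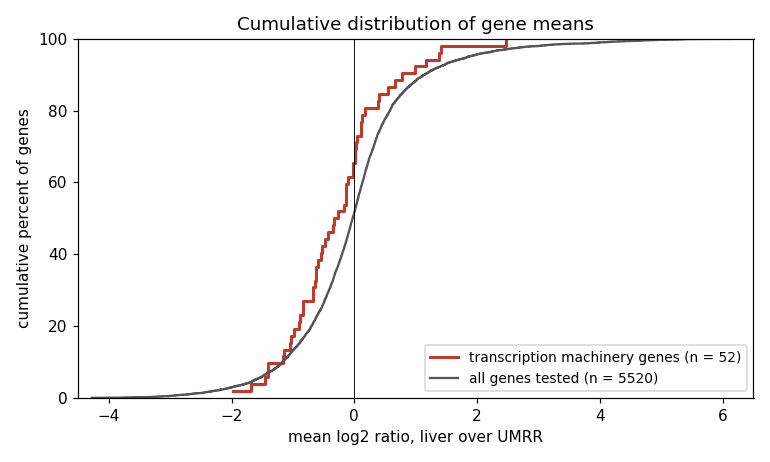
Cumulative percent of genes (vertical axis) by mean log2 ratio of liver over UMRR (horizontal axis), for the 52 measured transcription machinery genes and for all 5520 genes tested. The machinery genes run left of all genes through the middle of the range, with medians of -0.30 and -0.028, and end at 2.48 where all genes reach 6.14.

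The subunits of RNA polymerase II went in opposite directions. Of 5 measured subunits, 4 were lower in liver and 1 was higher, against 33.9% and 30.1% of all genes. The median of the 5 was -0.83. Polr2l encodes RPB10, a small subunit that polymerases I, II and III share. Its log2 ratio was 1.46, 1.43 and 1.32 on arrays 1, 2 and 3, a mean of 1.40 ± 0.072 (SD, n = 3) or 2.64-fold higher in liver, with an adjusted p of 4.42e-05. All 3 arrays lay close together and far above 0.

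Polr2e and Polr2k are also shared by the 3 nuclear polymerases and were lower in liver. Polr2e, which encodes RPB5, stood at -0.62, -0.48 and -0.53 on the arrays (mean -0.55 ± 0.074, adjusted p = 0.0026). For Polr2k the values were -0.72, -0.90 and -0.89 (mean -0.83 ± 0.10, adjusted p = 0.000449). Shared subunits thus lay on both sides of 0 on every array, with no overlap between Polr2l and either of the others. Within each array, Polr2l exceeded Polr2e by 2.08, 1.91 and 1.86 log2 units, and it exceeded Polr2k by 2.18, 2.32 and 2.21.

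Polr2d and Polr2g encode RPB4 and RPB7, which form the stalk of polymerase II and are not shared with polymerases I and III. Polr2d gave -1.35, -1.41 and -1.45, a mean of -1.41 ± 0.055 or 2.65-fold lower in liver (adjusted p = 4.09e-05). Polr2g gave -1.17, -1.57 and -1.47, with a mean of -1.40 ± 0.21, likewise 2.65-fold lower (adjusted p = 9.91e-05). The stalk genes were the lowest of the measured subunits and nearly equal in mean, and Polr2g was least low on array 1. Polr2f, another shared subunit, was listed at 0 on every array.

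The promoters of Polr2l and Polr2e are shown because these shared subunits lay on opposite sides of 0. Each line gives the 250 bases before the annotated start, 5′ to 3′, from RefSeq on GRCm38.p6. Capitals mark matches, on either strand, to the GC box GGGCGG, the CCAAT box CCAAT, the TATA box TATAAA, the ETS core CCGGAAG or the YY1 core AAGATGGC.
Polr2l, chr7:141475154-141475403, minus strand: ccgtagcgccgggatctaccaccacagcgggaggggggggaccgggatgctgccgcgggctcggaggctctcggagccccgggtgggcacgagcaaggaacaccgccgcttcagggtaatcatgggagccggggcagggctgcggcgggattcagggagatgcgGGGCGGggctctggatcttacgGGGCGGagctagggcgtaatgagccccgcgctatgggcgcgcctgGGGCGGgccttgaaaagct
Polr2e, chr10:80039660-80039909, minus strand: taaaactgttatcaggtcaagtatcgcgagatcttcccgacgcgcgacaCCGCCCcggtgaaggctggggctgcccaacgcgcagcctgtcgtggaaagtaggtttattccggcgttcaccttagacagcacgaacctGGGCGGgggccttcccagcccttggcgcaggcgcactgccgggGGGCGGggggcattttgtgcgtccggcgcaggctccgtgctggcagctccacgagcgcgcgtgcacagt
Both promoters held 3 GC boxes and none of the other motifs, and the matches did not overlap. The GC content was 71.2% for Polr2l and 65.6% for Polr2e. The GC box was found in 32.7% of all 32851 promoters in the table and in 32 of 54 promoters of the measured machinery genes. The 54 promoters belong to 43 genes, since a gene can have several starts. Their median GC content was 61.4%, against 52.4% for all promoters. The CCAAT box was found in 16 of the 54 (29.6%), against 33.8% of all promoters. The TATA box was found in 3 of the 54 (5.56%), against 12.4% of all promoters. For the ETS core it was 10 of the 54 (18.5%), against 6.91% of all promoters. For the YY1 core it was 1 of the 54 (1.85%), against 1.56%. These matches are letters in a fixed window and show no binding.

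Next to the subunits stood Polr2m, which encodes Gdown1, a protein that associates with polymerase II. It was lower in liver, at -0.59, -0.44 and -0.43 (mean -0.49 ± 0.088, adjusted p = 0.0046). Polr2d-ps2, a pseudogene of Polr2d, had a mean of -0.26 ± 0.073 and an adjusted p of 0.0466. It did not pass without array 2 (adjusted p = 0.154), without array 3 (0.222) or when the arrays were centred on their medians (adjusted p = 0.052). Its probe may take up RNA of Polr2d, so its value is uncertain.

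Genes named Polr3 or Gtf3, which belong to polymerase III or its factors and not to the shared subunits above, were lower in liver or did not pass. Of 4 measured genes, 2 were lower and none was higher, where all genes gave 33.9% and 30.1%. The other 2 did not pass, and the median of the 4 was -0.63. Polr3d, a polymerase III subunit, stood at -0.48, -0.72 and -0.68 (mean -0.62 ± 0.13, adjusted p = 0.00194). Polr3k, another subunit, stood at -0.21, -0.83 and -0.89 (mean -0.64 ± 0.38, adjusted p = 0.0111). All 4 Polr3k probes were below 0 on each array and least so on array 1. Polr3k did not pass without array 2 or without array 3, where the adjusted p was 0.0532 and 0.0651.

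Gtf3a encodes TFIIIA, which places polymerase III on 5S ribosomal RNA genes. Its values were -1.47, -0.025 and -0.51, a mean of -0.67 ± 0.73 that did not pass (adjusted p = 0.0624). Array 1 was far below the others. The gene passed when array 1 was left out (-0.39, adjusted p = 0.0111) or array 2 was (-0.96, adjusted p = 0.0079). In each case another probe, with no ratio on the array left out, entered as well. The probe measured on all arrays had a mean of -0.27 on arrays 2 and 3. Gtf3c2, a subunit of TFIIIC, stood at -0.023 ± 0.20 with an adjusted p of 0.869. Polr3e was listed at 0 on every array and Polr3f had single ratios on arrays 2 and 3 from different probes.

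TFIID is made of TBP and TBP-associated factors, some of which also belong to the coactivator SAGA. Of 6 measured genes of these complexes, 2 were higher in liver, 2 were lower and 2 did not pass. These counts are close to the shares of 30.1% and 33.9% over all genes. The median of the 6 was -0.082. Taf9, a factor found in both complexes, was lowest, at -0.97, -1.13 and -1.01 (mean -1.04 ± 0.082 or 2.05-fold lower, adjusted p = 0.000159). Taf15, an RNA-binding protein, was lower at -0.88, -0.87 and -0.95 (mean -0.90 ± 0.045, adjusted p = 0.000257). The arrays of both genes lay close together and well below 0.

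Taf13, which pairs with TAF11 in TFIID, was higher in liver at 0.56, 0.28 and 0.35 (mean 0.40 ± 0.15, adjusted p = 0.0143). Taf4b, a relative of Taf4 known from germ cells and B cells, was higher at 0.50, 0.38 and 0.28 (mean 0.39 ± 0.11, adjusted p = 0.0129). Both were above 0 on every array, but by at most 1.32-fold in the mean. Neither call held without array 3 (adjusted p = 0.0839 for Taf13 and 0.068 for Taf4b), and Taf4b also lost it without array 2 (adjusted p = 0.0723). Taf12 (-0.021 ± 0.13) and the SAGA subunit Supt7l (-0.14 ± 0.27) did not pass.

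Among the factors named TFII, 2 of 6 measured genes were lower in liver, where all genes gave 33.9%. None was higher and 4 did not pass; the median was 0.019. Gtf2e2 encodes the beta subunit of TFIIE, which brings TFIIH to the promoter. It stood at -1.52, -1.88 and -1.64, a mean of -1.68 ± 0.19 or 3.20-fold lower in liver (adjusted p = 3.99e-05), and was the second lowest of the 52 genes. Gtf2f1, the large subunit of TFIIF, stood at -1.62, -0.50 and -0.52 (mean -0.88 ± 0.64, adjusted p = 0.0155). Array 1 set that mean, which was -0.51 without it (adjusted p = 0.00158). With all 3 arrays the call was lost when the variance was not moderated (adjusted p = 0.199) or exact zeros were kept as ratios of 1 (0.191).

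The TFIIH subunits Gtf2h3 and Gtf2h5 had means of 0.0081 ± 0.17 and 0.030 ± 0.17, with values on both sides of 0 (adjusted p = 0.952 and 0.819). Gtf2i, a multifunctional factor also called TFII-I, stood at -0.35, 0.46 and 0.22 and did not pass (mean 0.11 ± 0.42, adjusted p = 0.576), but passed without array 1 (0.34, adjusted p = 0.0176). Its relative Gtf2ird2 had a mean of 0.17 ± 0.18 (adjusted p = 0.214), and probes of the 2 related genes may take up each other's RNA. Gtf2a1, Gtf2a1l and Gtf2e1 had ratios on 2 arrays at most.

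Mediator was the best represented complex, with 17 subunit genes on the array and 11 measured. Of the 11, 7 were lower in liver, 2 were higher and 2 did not pass. Over all genes tested, 33.9% were lower and 30.1% higher. The median of the 11 was -0.63. Med13l, a subunit of the kinase module that binds Mediator reversibly, was lowest, at -1.20, -1.62 and -1.57 (mean -1.46 ± 0.23 or 2.76-fold lower, adjusted p = 9.62e-05). Every array put it more than 2-fold below UMRR.

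Med4 and Med21 belong to the middle module of the complex. Med4 stood at -1.40, -0.87 and -1.19 (mean -1.15 ± 0.27, adjusted p = 0.000356). For Med21 the values were -0.74, -1.21 and -1.20 (mean -1.05 ± 0.27, adjusted p = 0.000558). Both means were over 2-fold lower in liver, Med4 lowest on array 1 and Med21 least low there. The other lower genes were Med23 of the tail module (-0.84 ± 0.17), Med6 of the head module (-0.67 ± 0.31), Med19 (-0.63 ± 0.096) and Med28 (-0.33 ± 0.015). The adjusted p was between 0.000681 for Med23 and 0.0179 for Med28. When the variance was not moderated, Med6 (adjusted p = 0.112) and Med21 (0.053) did not pass, and Med6 did not with exact zeros kept either (0.0919). Med28 did not pass without array 2 or array 3, where the adjusted p was 0.0984 and 0.155. Of its 3 probes measured on all arrays, 2 had means of -0.47 and -0.51. The other stood at 0.26, -0.18 and -0.12 on arrays 1, 2 and 3.

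Med11 and Med29 were higher in liver. Med11, of the head module, stood at 0.70, 0.80 and 0.82 (mean 0.78 ± 0.066 or 1.71-fold higher, adjusted p = 0.000526). Med29 stood at 0.54, 0.78 and 0.67 (mean 0.66 ± 0.12, adjusted p = 0.0014). The lower subunits had gene values up to -0.31, for Med28 on array 2. Both groups were formed by their calls, so the gap between them is no separate result. Within each array, Med11 exceeded Med4 by 2.10, 1.67 and 2.01 log2 units. Med20 of the head module (0.048 ± 0.12) and Med27 (-0.13 ± 0.081) did not pass. Neither did Med9os, an RNA annotated opposite to Med9 that the name rule took but that is no subunit (0.11 ± 0.29).

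Elongation factors and the TCEAL family, which is named for its likeness to the elongation factor TFIIS, lay on both sides of 0. Of 7 measured genes, 2 were higher in liver, 2 were lower and 3 did not pass, close to the shares of 30.1% and 33.9% over all genes. The median was -0.14. Tcea3 encodes a form of TFIIS, which rescues arrested polymerase II. It stood at 0.41, 1.26 and 1.29, a mean of 0.99 ± 0.50 or 1.98-fold higher (adjusted p = 0.00426). Both of its probes were above 0 on every array, with means of 0.99 and 0.98, and both were lowest on array 1. Tcea3 did not pass when the variance was not moderated (adjusted p = 0.124). Tceanc2, a gene named for a domain shared with TFIIS, did not pass (-0.14 ± 0.078).

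The promoter of Tcea3 is shown, in the same form, because it was the measured TFIIS gene and was higher in liver.
Tcea3, chr4:136247707-136247956, plus strand: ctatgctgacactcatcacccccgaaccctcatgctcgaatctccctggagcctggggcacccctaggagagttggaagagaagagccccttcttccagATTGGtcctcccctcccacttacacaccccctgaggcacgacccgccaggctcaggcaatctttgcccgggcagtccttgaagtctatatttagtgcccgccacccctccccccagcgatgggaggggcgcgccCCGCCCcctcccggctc
It held 1 GC box and 1 CCAAT box, and its GC content was 64%.

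Tceal9 was the lowest gene of all 52, at -2.05, -1.82 and -2.04 (mean -1.97 ± 0.13 or 3.92-fold lower in liver, adjusted p = 1.63e-05). Tceal8 was lower at -0.92, -0.34 and -0.50 (mean -0.59 ± 0.30, adjusted p = 0.00892, or 0.125 without a moderated variance), while Tceal1 was higher at 0.64, 0.51 and 0.51 (mean 0.55 ± 0.076, adjusted p = 0.00253). Tceal3 did not pass (-0.16 ± 0.043, adjusted p = 0.156). Family members thus lay from -1.97 to 0.55, and Tceal1 exceeded Tceal9 by 2.68, 2.32 and 2.55 log2 units on arrays 1, 2 and 3. Genes of this family are alike in sequence, so probes may take up RNA of a neighbour. Supt4a, a subunit of the elongation factor DSIF, had values on both sides of 0 (0.0039 ± 0.22, adjusted p = 0.979), and Supt6 was listed at 0 on every array.

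The CCR4-NOT complex removes poly(A) tails. Of its 4 measured genes, 1 was higher in liver, 1 was lower and 2 did not pass. Over all genes 30.1% were higher and 33.9% lower. The median of the 4 was -0.27. Cnot7, a catalytic deadenylase subunit, stood at 1.22, 1.08 and 1.19 (mean 1.16 ± 0.074 or 2.23-fold higher, adjusted p = 9.57e-05). It lay more than 2-fold above UMRR on each array, though its second probe was listed at 0 throughout. With exact zeros kept as ratios of 1, its mean was 0.58 (adjusted p = 0.00619).

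Cnot8 encodes the paralogous deadenylase, and its 2 probes went opposite ways. One gave -0.42, -0.76 and -0.59 on the arrays and the other -0.14, 0.64 and 0.63. The gene mean was -0.11 ± 0.15 and did not pass (adjusted p = 0.387), and it stands for neither probe. Cnot4, an E3 ubiquitin ligase, was lower at -0.34, -0.67 and -0.56 (mean -0.52 ± 0.17, adjusted p = 0.00524, or 0.0684 without a moderated variance). Cnot2, a structural subunit, stood at 0.082, -0.76 and -0.62 (mean -0.43 ± 0.45, adjusted p = 0.0696) and passed without array 1 (-0.69, adjusted p = 0.000532). Cnot9 and Cnot10 were listed at 0 on every array, and Cnot11 had a ratio on array 2 alone.

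The highest value of the set was that of a cleavage and polyadenylation gene. Of 6 measured genes, 2 were higher in liver and 3 were lower, where all genes gave 30.1% and 33.9%. The remaining gene did not pass, and the median of the 6 was -0.11. Cpsf4l, a paralogue of the polyadenylation factor gene Cpsf4, stood at 2.06, 3.30 and 2.07, a mean of 2.48 ± 0.72 or 5.57-fold higher (adjusted p = 0.000269). Array 2 was highest, but each array was at least 2-fold above UMRR. Cpsf4l rested on 1 probe, and it did not pass when the variance was not moderated (adjusted p = 0.0617).

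Cpsf6 and Cpsf7 encode alternative large subunits of cleavage factor Im, which binds upstream of the poly(A) signal. Cpsf7 was higher in liver, at 0.70, 2.14 and 1.28 (mean 1.37 ± 0.72 or 2.59-fold, adjusted p = 0.00382). Cpsf6 was lower, at -1.46, -0.95 and -1.10 (mean -1.17 ± 0.26 or 2.25-fold lower, adjusted p = 0.000331). The arrays of the 2 genes did not overlap, and the difference within an array was 2.16, 3.08 and 2.38 log2 units. All 3 Cpsf6 probes were below 0 on every array, with means from -1.34 to -1.01, though 2 of the 3 are annotated to the same clone. Cpsf7 rested on 1 probe that did not pass when the variance was not moderated (adjusted p = 0.131). Nudt21, the small subunit that both bind and that the name rule did not take, was lower at -1.44, -1.42 and -1.47 (mean -1.45 ± 0.026, adjusted p = 3.46e-05, 5 probes).

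Their promoters are shown, in the same form, because these partners of 1 small subunit lay on opposite sides of 0.
Cpsf7, chr19:10524994-10525243, plus strand: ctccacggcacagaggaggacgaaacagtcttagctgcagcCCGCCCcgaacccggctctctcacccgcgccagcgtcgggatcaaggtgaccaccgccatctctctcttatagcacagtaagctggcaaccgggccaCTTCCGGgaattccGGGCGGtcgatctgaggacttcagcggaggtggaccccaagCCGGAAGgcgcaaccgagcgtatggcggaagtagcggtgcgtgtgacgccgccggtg
Cpsf6, chr10:117376974-117377223, minus strand: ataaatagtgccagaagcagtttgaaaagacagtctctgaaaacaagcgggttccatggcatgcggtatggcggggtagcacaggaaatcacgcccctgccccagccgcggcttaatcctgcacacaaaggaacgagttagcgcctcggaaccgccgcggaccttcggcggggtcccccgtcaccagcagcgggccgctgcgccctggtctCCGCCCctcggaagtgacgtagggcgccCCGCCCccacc
Each held 2 GC boxes. Cpsf7 also held 2 ETS cores and Cpsf6 none, and the GC content was 64.8% and 64%.

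Cstf3, a subunit of the cleavage stimulation factor, was lower in liver at -1.0, -1.02 and -0.94 (mean -0.99 ± 0.040 or 1.98-fold lower, adjusted p = 0.000172). Cpsf3, the endonuclease that cuts the transcript, stood at -0.37, -0.26 and -0.41 (mean -0.35 ± 0.079, adjusted p = 0.0174). Leaving out array 2 or array 3 ended that call, with an adjusted p of 0.0652 and 0.169. Cstf1, a partner of Cstf3, did not pass, at 0.12 ± 0.12. Cpsf2 had a ratio on 1 array only.

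**Figure D2:**
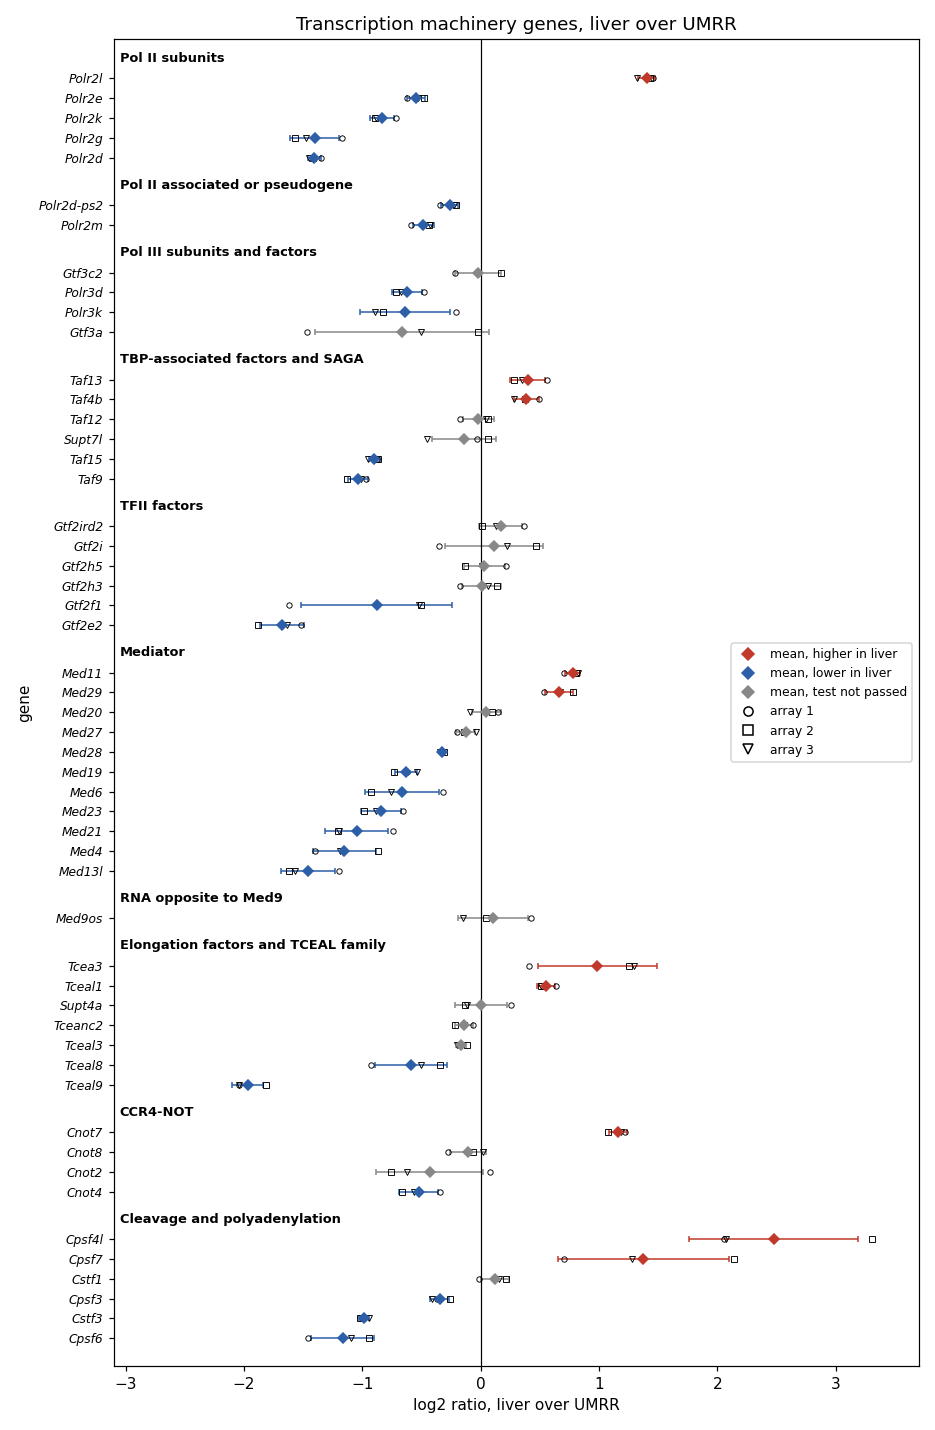
Log2 ratio of liver over UMRR (horizontal axis) for each of the 52 measured genes (vertical axis), grouped by complex or role. Diamonds are means with bars of 1 SD over 3 arrays, coloured by the limma call, and open symbols are the arrays. Polymerase II subunits, TBP-associated factors and SAGA, and Mediator each hold genes called in both directions. The same holds for elongation factors and the TCEAL family, CCR4-NOT, and cleavage and polyadenylation. Means run from -1.97 for Tceal9 to 2.48 for Cpsf4l over the whole set.

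Of the 52 genes, 22 were measured by at least 2 probes and 30 by 1. The probes of a gene spanned a median of 0.27 log2 units, and up to 0.96 for Cnot8 and 0.86 for Polr2d. Polr2d probes stood at -1.83 and -0.98, both below 0. The 4 Polr2g probes lay between -1.56 and -1.25, the 3 Polr2k probes between -0.96 and -0.74, and the 2 Polr2l probes at 1.52 and 1.29. The Polr2l probes are annotated to the same clone, so they are not independent. Probe means lay on both sides of 0 for 4 genes: Cnot8, Med20, Med27 and Taf12. None of these 4 passed the test as a gene.

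**Figure D3:**
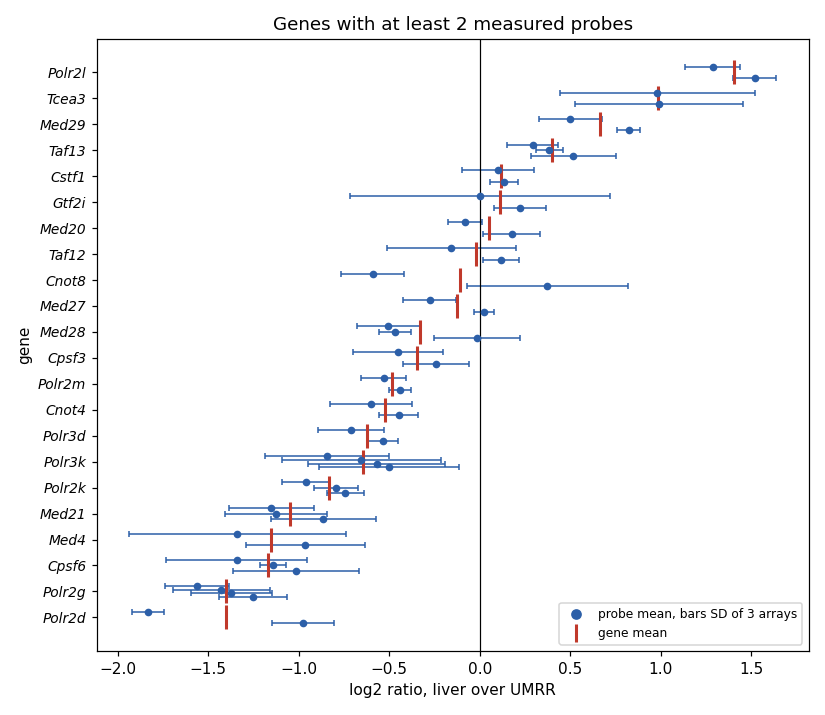
Mean log2 ratio of liver over UMRR (horizontal axis) of each measured probe for the 22 genes (vertical axis) with at least 2 such probes. Points are probe means with bars of 1 SD over 3 arrays and red ticks are gene means. Probes of most genes lie close together, and those of Cnot8 and Polr2d are farthest apart, by 0.96 and 0.86 log2 units.

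Array 1 stood apart for these genes, as it did over all genes. Pearson's r over the 52 genes, given as a description, was 0.85 for arrays 1 and 2 and 0.90 for arrays 1 and 3. It was 0.97 for arrays 2 and 3. Over all 5520 genes it was 0.93, 0.94 and 0.98 for the same pairs. The values share RNA and dyes. The SD of the difference was 0.50, 0.37 and 0.25 for these pairs, against 0.43, 0.38 and 0.21 over all genes. Array 1 differed by at least 0.5 log2 units from the mean of arrays 2 and 3 in 10 genes, a count not made over all genes. The gap was largest in Gtf3a and Gtf2f1 (by -1.20 and -1.11) and in Cpsf7 and Tcea3 (by -1.01 and -0.87). In Cpsf7 (0.70, 2.14 and 1.28 on arrays 1, 2 and 3) and Cpsf4l (2.06, 3.30 and 2.07), array 2 lay farther from the others than array 1 did. Array 1 was the higher side for 27 of the 52 genes and the lower for 25. The median SD of a gene over the arrays was 0.15, against 0.17 for all genes.

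**Figure D4:**
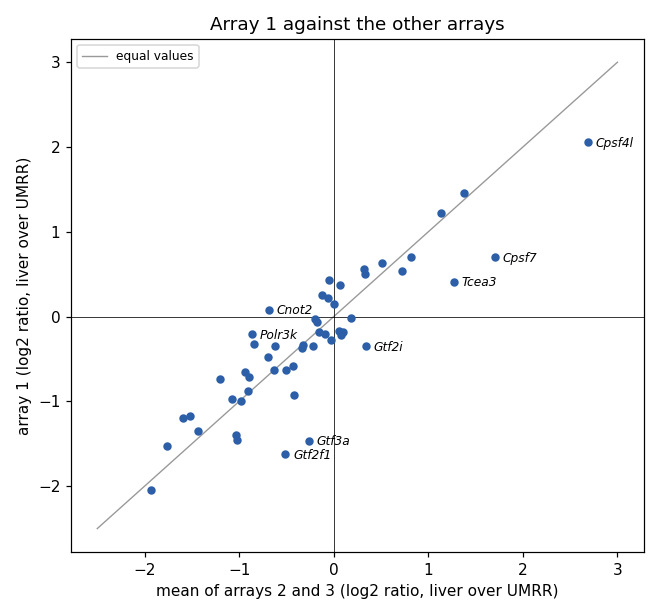
Log2 ratio of liver over UMRR on array 1 (vertical axis) against the mean of arrays 2 and 3 (horizontal axis) for the 52 measured genes, with the line of equal values and names for the 8 genes farthest from it. Gtf3a and Gtf2f1 lie over 1 log2 unit below the line, and Cnot2 and Polr3k lie above it.

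Partners of these complexes that the name rule did not take were set beside them. Of 93 genes in that list, 54 were on the array and 26 were measured. Of the 26, 12 were lower in liver, 5 were higher and 9 did not pass; the median was -0.39; over all genes 33.9% were lower and 30.1% higher. The lowest were Nelfe of the pausing factor NELF (-1.81 ± 0.048), Iws1, which binds the product of Supt6 (-1.79 ± 0.082), Nudt21, the TFIIH kinase subunit Mnat1 (-1.43 ± 0.055) and the TBP relative Tbpl1 (-1.41 ± 0.10). Their adjusted p-values lay between 1.58e-05 and 4.97e-05.

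Mnat1 was lower on every array, while the TFIIH subunits Gtf2h3 and Gtf2h5 had arrays on both sides of 0. Ccnc, the cyclin of the Mediator kinase module, was lower in liver beside Med13l, at -0.73, -0.92 and -0.94 (mean -0.87 ± 0.12, adjusted p = 0.000413). Of 2 polymerase I subunits, Twistnb was lower (-0.47 ± 0.23, adjusted p = 0.0123) and Znrd1 did not pass (-0.23 ± 0.30, adjusted p = 0.175). Of the elongin subunits, Eloc was lower (-0.43 ± 0.36, adjusted p = 0.045) and Elob did not pass (-0.083 ± 0.024, adjusted p = 0.447).

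The partners higher in liver were Tob2, Rpap3, Ssu72, Cdk12 and Sympk. Tob2, which binds the deadenylase subunits of CCR4-NOT, stood at 0.92, 1.13 and 1.03 (mean 1.03 ± 0.10, adjusted p = 0.000183). Rpap3, which helps to assemble polymerase II, stood at 1.07, 0.69 and 0.85 (mean 0.87 ± 0.19, adjusted p = 0.000658). The polymerase II phosphatase Ssu72 (0.72 ± 0.084), the polymerase II kinase Cdk12 (0.69 ± 0.29) and Sympk, a scaffold of the cleavage machinery (0.25 ± 0.037), had adjusted p-values of 0.000775, 0.00437 and 0.0478. Sympk was thus higher and Cpsf3, its partner in cleavage, lower.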

How the data were processed

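The deposited values are 1 log2 ratio per probe and array as processed by the authors; the log base, the direction, the background correction, the dye normalization and the meaning of exact zeros are not stated in any source used here, and base 2 is an assumption. Scanner intensities were not used here, so signal over background is unknown, and the number of arrays limits the precision. Of 16273 probes, 12336 had 1 symbol in the platform annotation, 61 several and 3876 none; 12228 matched the RefSeq gene table (GRCm38.p6) by gene ID and 0 symbols changed. All 74 machinery genes matched, and 63 had a promoter in the RefSeq table.

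Exact zeros were taken as no ratio. Probes with a ratio on all arrays (9910) were averaged per gene and array, giving 5520 genes. The mean of the arrays was tested against 0 for every gene with limma 3.58.1 (lmFit, eBayes; R 4.3.3), two-sided. P-values were adjusted by Benjamini-Hochberg over all genes, with a threshold of 0.05. The fit was tested on simulated data.

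Any gene of the name rule could be named. In each role group the called genes with the 3 largest absolute means on each side were given array by array, others after their values were seen. Of the partners, the 5 highest and 5 lowest called were named, and partners of a named gene's complex. The members, role groups and lists were chosen with earlier results of these data known. The promoters and the pairs compared within an array were chosen after the values were seen. Alternatives covered arrays, centring, scaling, probes, zeros, the test, the threshold and the log base.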

Additional observations from a re-analysis of the deposited data

How the results depend on the processing

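The 3 arrays repeat 1 RNA pair with 1 dye orientation, so neither the spread between livers nor dye bias was measured. Of the 35 called genes, 35, 30 and 29 kept their call without array 1, 2 and 3, 34 with the arrays centred or centred and scaled, 34 with probes measured on at least 2 arrays, and 28 with exact zeros kept as ratios of 1 or at a threshold of 0.01. Without moderation of the variance 23 kept it, and 7 in a test against a 2-fold difference. None of the 35 changed its sign in any of these settings. The 12 that lost it without moderation (adjusted p from 0.053 to 0.199) were Polr2d-ps2, Polr3k, Taf13, Taf4b, Gtf2f1, Med6, Med21, Tcea3, Tceal8, Cnot4, Cpsf4l and Cpsf7. The 7 that lost it with zeros kept (0.0632 to 0.191) were Polr3k, Taf13, Gtf2f1, Med6, Tcea3, Tceal8 and Cpsf7. Without moderation 5 of the 52 genes were higher and 18 lower, and 2087 of all 5520 genes passed in either direction. In the test against a 2-fold difference 2 genes were higher and 5 lower, and 816 of all 5520 genes passed in either direction. With probes above percentile 95 of the SD left out, 48 genes were measured, of which 8 were higher and 25 lower. Of all 5303 genes in that setting, 3576 passed in either direction. Cpsf4l, Cpsf7 and Gtf2f1 then had no probe, and the other 32 called genes kept their call. Counted over single probes instead of genes, 43 of 83 were lower and 15 higher, and the median was -0.45. A gene with several probes then counts more than once. Of all 9910 probes, 6427 passed in either direction. The median of the set lay between -0.32 and -0.21 when an array was left out, at -0.11 with exact zeros kept, which adds ratios of 1, and at -0.43 if the values are natural logs. With zeros kept, Med19 stood at -0.23 (adjusted p = 0.0269) and Tceal8 at -0.29 (adjusted p = 0.107).

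Of the 17 genes that had not passed, some kept their sign whichever array was left out, and the following turned it. The ranges were -0.17 to 0.075 for Gtf3c2, -0.065 to 0.054 for Taf12, -0.24 to 0.013 for Supt7l, -0.064 to 0.34 for Gtf2i, -0.062 to 0.11 for Gtf2h5, -0.057 to 0.10 for Gtf2h3, -0.055 to 0.23 for Med9os and -0.12 to 0.070 for Supt4a. Without array 3, the Gtf3c2 value of -0.17 also included a probe with no ratio on that array. The cause of the changes of sign was not tested. No paired analysis was possible because the arrays form 1 group.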

Other observations

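Genes with a ratio on only some arrays entered no test. Supt3, a SAGA subunit, stood at -1.27 and -0.84 on arrays 1 and 2, and Gtf2a1, the large subunit of TFIIA, at -1.19 and -0.34 on the same arrays. Med25, a Mediator subunit, stood at -0.39 and -0.33 on arrays 1 and 2. Taf1d, a factor of polymerase I, had values of -1.96 and -0.025 from 2 probes on array 2 alone. Cnot11 stood at -0.85 and Taf6l at 0.63, each on array 2 alone, and Cpsf2 at -0.30 on array 1 alone. Supt3, Gtf2a1 and Med25 thus had 2 arrays each, and the other values are single readings with no replicate.

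Exact zeros also fell on probes whose gene was clearly measured by others. Of the 6 Polr2g probes, 4 gave ratios on every array, 1 gave a ratio of -0.89 on array 2 alone and 1 was listed at 0 throughout. Of 2 Med19 probes annotated to the same clone, 1 stood at -0.63, -0.73 and -0.54 on arrays 1, 2 and 3, and the other was listed at 0 on each. Of 2 Cnot7 probes, 1 stood at 1.16 ± 0.074 (SD, n = 3) and the other was listed at 0 on each array. What set those zeros was not tested.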
